A study of Mus musculus with 4 samples.

Results

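Granzymes, perforin and Nkg7 are the cargo and membrane proteins of the cytotoxic granule, and their RNA was compared here between CD4 and CD8 T cells labelled as Gfi1 knockout or wildtype. Every probe set that the platform annotation assigns to Gzma, Gzmb, Gzmk, Gzmm, Prf1 or Nkg7 alone was taken, which gave 7 probe sets for 6 of the 12393 named genes, with 2 for Prf1. The cells were spleen T cells of C57BL/6 mice, separated on a flow sorter by their CD4, CD8 and CD44 staining, untreated, with ages not given in the labels. The 4 groups were CD4 cells of Gfi1 knockout mice, CD8 cells of Gfi1 knockout mice, CD4 cells of wildtype mice and CD8 cells of wildtype mice, all described as CD44 low, and each is 1 Affymetrix array with the RNA of 2 mice pooled. No group had a replicate, so precision is limited by the small number of arrays, the spread between animals is unknown and no difference below has a test.

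Cytotoxic lymphocytes kill by releasing granules toward a target cell. Perforin, the product of Prf1, makes pores in the membrane, and granzymes, a family of serine proteases, enter through them and cleave proteins in the target. Nkg7 encodes a membrane protein of these granules that takes part in their release. Granzyme and perforin RNA is high in natural killer cells and in effector and memory CD8 T cells, and low in naive T cells.

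The labels fitted the markers of the subsets, while the CD44 low label fitted the Cd44 signal on the knockout-labelled arrays only. The floor used here is a signal of 93.9, the 40th percentile over the non-control probe sets of all arrays; lower signals were set to it before log2 values were taken, so folds against such an array are lower bounds. Cd4 read 5470 and 5901 in the CD4 samples and under the floor in both CD8 samples. Cd8a showed the reverse, with 16639 and 15920 in the CD8 samples. Cd8b1 read 25715 and 26222 in the CD8 samples, but it passed the floor in CD4 cells too, at 970.5 (knockout label) and 312.1 (wildtype label). Cd3e, a chain of the T cell receptor complex, lay between 6193 and 7468 on all 4 arrays. Cd44, which antigen-experienced T cells carry at a high level, read 196 and 252 on the knockout-labelled CD4 and CD8 arrays and 8136 and 5740 on the wildtype-labelled ones. The sample titles end in N for both knockout-labelled arrays and in M for both wildtype-labelled ones. Gfi1 signal was higher on the knockout-labelled arrays, at 2891 against 2272 in CD4 and 2447 against 1158 in CD8 cells, and whether its probe set lies in the deleted region is not stated in the labels. Genotype is therefore given as labelled, and genotype and the difference in Cd44 cannot be told apart. In pooled RNA of this kind, fewer cells expressing a gene and less RNA per cell cannot be told apart either.

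The windows around the genes' start sites carry short matches to the motifs of factors that are known to act on these genes. T-bet and Eomes bind T-box sites, RUNX factors bind RUNX sites, and STAT and AP-1 factors carry cytokine and T cell receptor signals. RefSeq gives 7 promoter windows (GRCm38.p6; 250 bases before to 50 after a start) for the 6 genes, with 2 for Gzmm. Of the windows printed here, those of Gzmk and Nkg7 are shown because these were, with the floor, the members furthest below wildtype in CD4 cells, that of Gzmb because it holds 4 matches, and that of Prf1 because this gene went the other way. Capitals mark matches on either strand to GGTGTGA (T-box), TGTGGT (RUNX), TTCNNNGAA (STAT), TGANTCA (AP-1) or AAATCA (a core of GFI1 sites), none of which overlap in these windows.
Gzmk, chr13:113180916-113181215, minus strand: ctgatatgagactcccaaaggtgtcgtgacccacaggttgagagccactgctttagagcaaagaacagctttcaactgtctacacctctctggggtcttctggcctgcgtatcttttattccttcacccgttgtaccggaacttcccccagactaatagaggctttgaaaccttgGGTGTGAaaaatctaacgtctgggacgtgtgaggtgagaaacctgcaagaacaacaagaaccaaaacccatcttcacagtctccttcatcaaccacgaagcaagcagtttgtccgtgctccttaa
Nkg7, chr7:43436888-43437187, plus strand: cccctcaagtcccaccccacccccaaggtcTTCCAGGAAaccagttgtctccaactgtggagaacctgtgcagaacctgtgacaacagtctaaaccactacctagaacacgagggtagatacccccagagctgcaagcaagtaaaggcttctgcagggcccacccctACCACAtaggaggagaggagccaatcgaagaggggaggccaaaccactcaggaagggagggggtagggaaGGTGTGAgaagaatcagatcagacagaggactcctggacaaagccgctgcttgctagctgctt
Gzmb, chr14:56262285-56262584, minus strand: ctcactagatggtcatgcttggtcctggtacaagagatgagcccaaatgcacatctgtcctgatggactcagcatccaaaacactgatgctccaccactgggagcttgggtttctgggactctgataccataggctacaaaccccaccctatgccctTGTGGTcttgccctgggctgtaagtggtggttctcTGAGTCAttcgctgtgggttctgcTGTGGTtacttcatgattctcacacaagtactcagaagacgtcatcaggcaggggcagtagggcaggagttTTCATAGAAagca
Prf1, chr10:61297586-61297885, plus strand: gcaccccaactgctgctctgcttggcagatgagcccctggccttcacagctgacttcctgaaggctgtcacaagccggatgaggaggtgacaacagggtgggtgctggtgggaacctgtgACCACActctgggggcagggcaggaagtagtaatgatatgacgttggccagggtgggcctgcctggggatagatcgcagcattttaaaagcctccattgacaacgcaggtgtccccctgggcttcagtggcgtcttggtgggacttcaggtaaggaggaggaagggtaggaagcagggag

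The T-box letters GGTGTGA stood in the Gzmk window at position -75 and in the Nkg7 window at position -13, counted from 0 at the start site, and in 3.98% of all 32851 promoter windows. The second Gzmm window, on chromosome 10, held them at position -189. RUNX letters were found in the Gzmb window at positions -93 and -34, in the Prf1 window at -130, in the Nkg7 window at -83, in the Gzma window at -50 and in the first Gzmm window at -247, against 16.8% of all windows. STAT letters (8.30% of all windows) stood in the Gzmb window at position 37, after the start site. They were also in the Nkg7 window at -220 and the first Gzmm window at -86. AP-1 letters stood in the Gzmb window, as TGAGTCA (7.81%). No member window held AAATCA, which is in 14.0% of all windows. A match describes these letters and not a bound site.

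Each of the 6 genes had its highest signal on the wildtype-labelled CD8 array. With the floor, 15.2% of all named genes did, a share in which genes at the floor on all arrays cannot count. Beyond that the patterns of the 6 fell apart. Gzma, Gzmb and Gzmm stood at least 2-fold above each other array there, against 0.888% of all named genes. Nkg7 was high on every array but the knockout-labelled CD4 one. Prf1, by its brighter probe set, was high on both knockout-labelled arrays as well, and Gzmk was high on both wildtype-labelled ones.

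**Figure D1:**
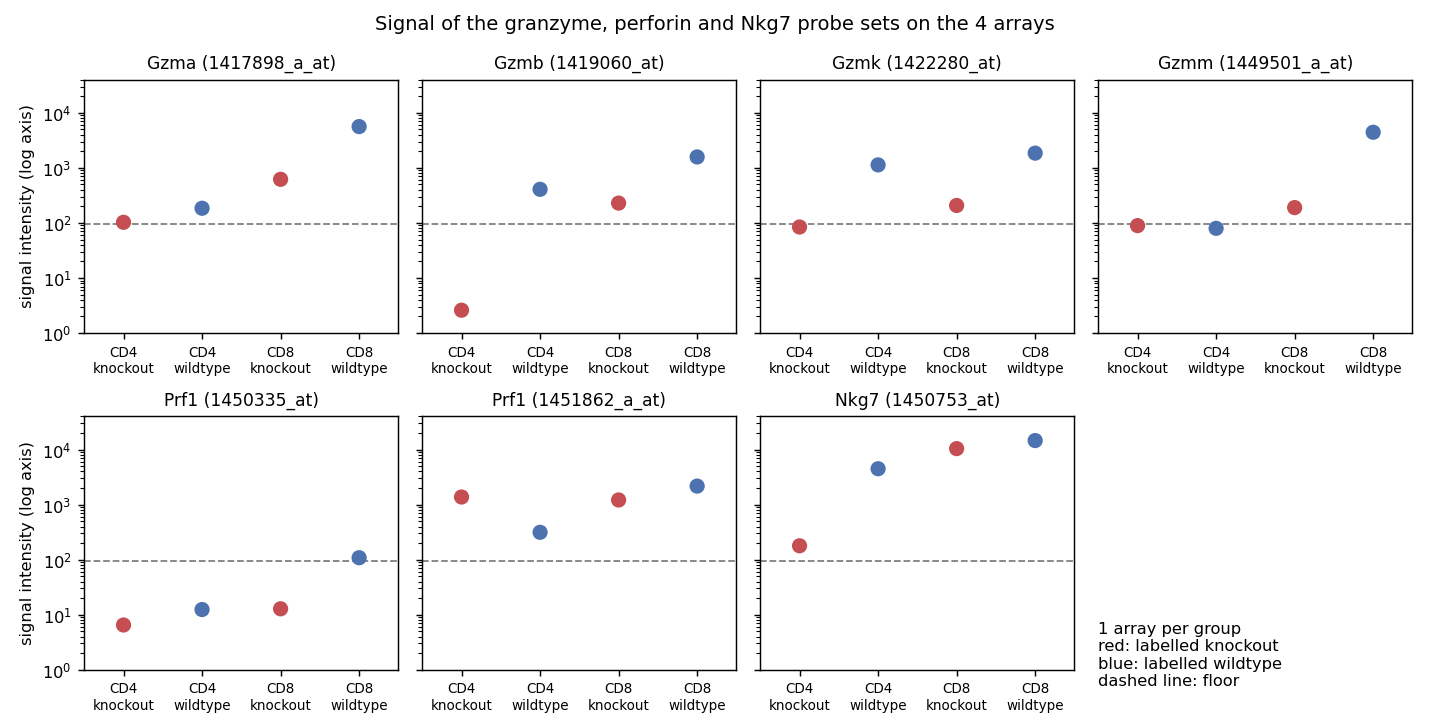
Signal intensity (log axis) of the 7 probe sets on the 4 arrays, with 1 point per array, red for the arrays labelled knockout and blue for those labelled wildtype; the dashed line is the floor of 93.9. The wildtype-labelled CD8 array is the highest in every panel, and Nkg7 in knockout-labelled CD8 cells, at 10407, lies close below it.

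Gzma encodes granzyme A, a tryptase that cuts after basic residues. Its signal was 103 on the knockout-labelled CD4 array, 185 on wildtype CD4, 621 on knockout CD8 and 5633 on wildtype CD8. Both CD8 arrays lay above both CD4 arrays, and the CD4 values were close to the floor. In CD8 cells the knockout-labelled array was 9.07-fold lower (log2 -3.18), and in CD4 cells 1.80-fold lower (log2 -0.85). CD8 exceeded CD4 cells 30.4-fold under the wildtype label and 6.04-fold under the knockout label.

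Gzmm encodes granzyme M, which cuts after methionine and leucine and is best known from natural killer cells. It read 89.5 on knockout-labelled CD4, 79.9 on wildtype CD4, 190.1 on knockout CD8 and 4443 on wildtype CD8. Only the wildtype-labelled CD8 array was far above the floor among these. Its drop to the knockout-labelled CD8 array was 23.4-fold (log2 -4.55), the eighth lowest value of the 12393 genes in that comparison with the floor, which bounds some of them, and no fold can be given in CD4 cells, where both arrays were at the floor. In wildtype-labelled cells CD8 lay at least 47.3-fold above CD4.

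Gzmb encodes granzyme B, which cuts after aspartate and activates caspases. It gave 2.6 on knockout-labelled CD4, 409 on wildtype CD4, 229.6 on knockout CD8 and 1581 on wildtype CD8. Within each subset the knockout-labelled array was lower, at least 4.35-fold in CD4 and 6.89-fold in CD8 cells (log2 -2.78). CD8 was 3.87-fold above CD4 under the wildtype label and at least 2.45-fold above it under the knockout label.

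Gzmk encodes granzyme K, a tryptase like granzyme A and its neighbour on chromosome 13. Signal was 84.4 on knockout-labelled CD4, 1135 on wildtype CD4, 208 on knockout CD8 and 1856 on wildtype CD8. Here both wildtype-labelled arrays lay above both knockout-labelled ones. The knockout-labelled array was lower by at least 12.1-fold in CD4 and by 8.93-fold in CD8 cells (log2 -3.16). Wildtype-labelled CD8 cells were 1.64-fold above CD4 cells.

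Nkg7 was low on 1 array, that of knockout-labelled CD4 cells. It read 178.6 on knockout-labelled CD4, 4486 on wildtype CD4, 10407 on knockout CD8 and 14569 on wildtype CD8. The other 3 arrays lay far above it. Nkg7 was 25.1-fold lower there than on wildtype CD4 (log2 -4.65), the tenth lowest value of the 12393 genes with the floor, and 1.4-fold lower in CD8 cells (log2 -0.49). CD8 exceeded CD4 cells 58.3-fold under the knockout label, against 3.25-fold under the wildtype label.

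Prf1 was the member that was higher in knockout-labelled CD4 cells, by the brighter of its 2 probe sets. There it read 1375 on knockout-labelled CD4, 314 on wildtype CD4, 1214 on knockout CD8 and 2170.4 on wildtype CD8. By this brighter probe set the knockout-labelled CD4 array was 4.38-fold higher than wildtype CD4 (log2 2.13) and the knockout-labelled CD8 array 1.79-fold lower than wildtype CD8 (log2 -0.84). On the dimmer probe set the values were 6.5, 12.4, 12.8 and 108.4 in the same order, so wildtype CD8 alone passed the floor, no fold can be given in CD4 cells, and values this low show neither the same pattern nor another. The higher Prf1 signal in knockout-labelled CD4 cells therefore rests on 1 probe set of 2, whose places in the transcript no table used here states.

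Between the labelled genotypes, 3 of the 6 genes were at least 2-fold lower on the knockout-labelled array in CD4 cells (Gzmb, Gzmk and Nkg7), against 5.06% of the 12393 genes. With the floor at the 60th percentile Gzmb was at the floor on both arrays and 2 were left. Prf1 was at least 2-fold higher, against 1.36%. In CD8 cells 4 of the 6 were at least 2-fold lower (Gzma, Gzmb, Gzmk and Gzmm), against 2.77% of all genes, and 0 were higher, against 0.791%. Gzmb and Gzmk were lower in both subsets, as 1.44% of all genes were, and 0 were higher in both, against 0.242%. The median log2 difference of the 6 was -1.48 (CD4) and -2.97 (CD8), beside 0 for all genes in each. In CD4 cells Gzmb and Gzmk were entered at their bound and Gzmm, at the floor on both arrays, at 0, so -1.48 depends on the floor.

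**Figure D2:**
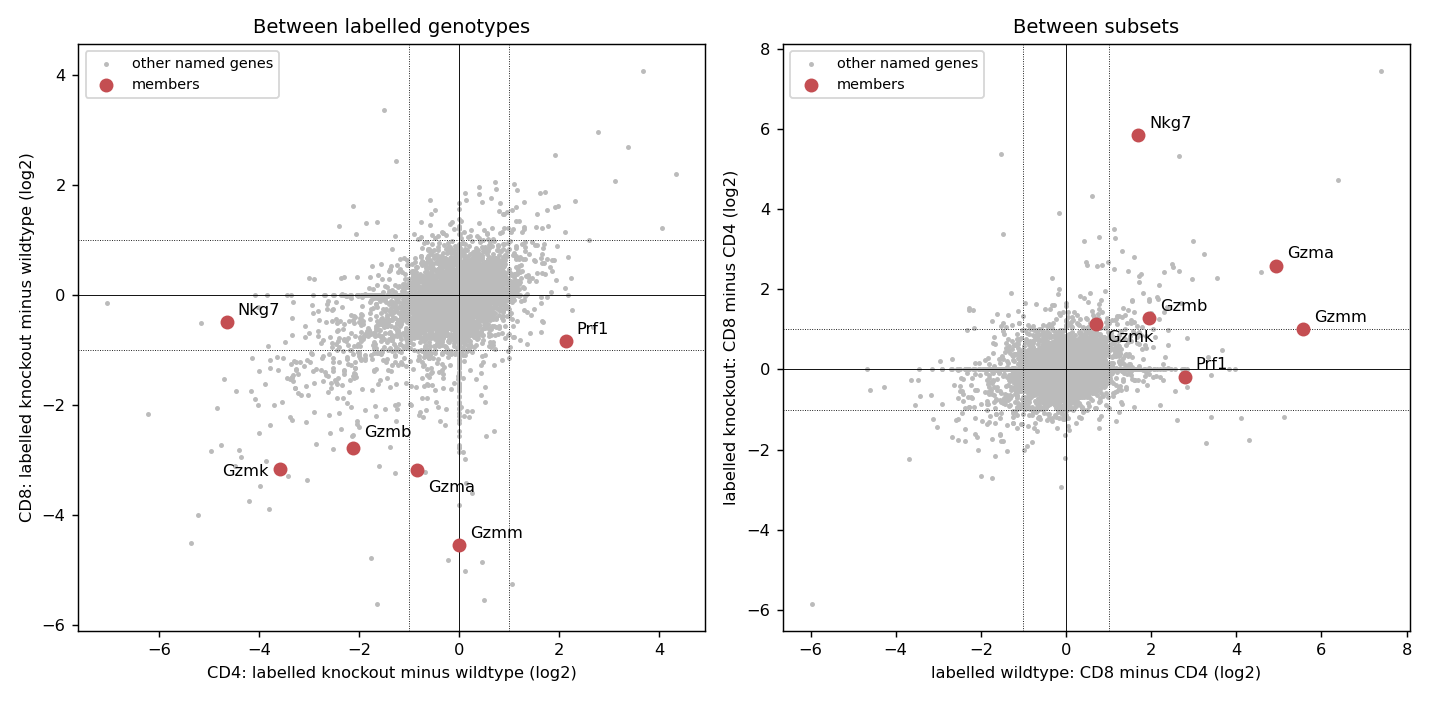
Log2 differences of the 12393 named genes (grey) and the 6 members (red): left, knockout-labelled minus wildtype-labelled arrays in CD4 (horizontal) and CD8 cells (vertical); right, CD8 minus CD4 under the wildtype (horizontal) and the knockout label (vertical), with dotted lines at 2-fold. Gzmb and Gzmk lie low in both subsets, Nkg7 is low in CD4 cells at -4.65 and Gzmm in CD8 cells at -4.55, and Prf1 is higher in CD4 cells at 2.13.

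Between the subsets, 5 of the 6 genes were at least 2-fold higher in CD8 than in CD4 cells under the wildtype label, all but Gzmk, against 2.15% of all genes. Under the knockout label 5 were as well, all but Prf1, against 1.35%, but for Gzmb, Gzmk and Gzmm this is a bound near 2-fold with CD4 at the floor. With the floor at the 60th percentile Nkg7 alone kept it. None was at least 2-fold lower in CD8 cells under either label, against 3.46% of all genes under the wildtype and 0.88% under the knockout label. These comparisons use the same 4 arrays as those between the labelled genotypes and are another view of the same values.

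The difference between the labelled genotypes was itself unlike in the subsets for several members. The CD8 log2 difference minus the CD4 one was 4.17 for Nkg7, -2.97 for Prf1 and -2.33 for Gzma. Gzmb and Gzmk have a bound in CD4 cells, at -0.66 or above and 0.44 or above, and none can be given for Gzmm. These differences were not tested.

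To see which members were alike, each gene's log2 profile over the 4 arrays was taken minus its own mean and compared by the root mean square difference, in log2 units. Among the members the closest pairs were Gzma with Gzmm (0.61) and Gzmb with Gzmk (0.64), and the furthest was Prf1 with Nkg7 (2.70). Among the 8596 genes that passed the floor somewhere, the profile nearest to that of Gzmk belonged to Klrc1, an inhibitory receptor gene of natural killer and CD8 cells (0.12), then to Lgals3, a galectin gene (0.27), and Il18rap, a chain of the IL-18 receptor (0.50). Nearest to Gzma after Gzmm were Eomes, a T-box factor gene (0.73), and Zfp296 (0.85). For Gzmm they were Gzma, the natural killer receptor gene Klra7 (0.74) and Plbd1 (0.80), and Klra7 read 1329 on wildtype-labelled CD8 and below the floor on the other arrays.

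Gzmb had among its nearest profiles those of Ifitm10 (0.22) and Baiap3 (0.37). Nkg7 had Plac8 (0.86), Racgap1, a gene of cell division (1.02), and Slc25a53 (1.03), none of them as close as the neighbours of Gzmk. Plac8 shared the low value on knockout-labelled CD4, with 339 there, 1749 on wildtype CD4, 13636 on knockout CD8 and 11034 on wildtype CD8. Nearest to Prf1 by its brighter probe set were Drc1 (0.22), the p53 target gene Bbc3 (0.33) and Zbtb8a (0.33). Likeness over 4 arrays is a description, and values at the floor are alike by construction.

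Of 15 genes of granule transport and release that could be named, 0 were at least 2-fold apart between the labelled genotypes in either subset. That is near the share of all genes, of which 5.06% were lower and 1.36% higher in CD4 cells, and 2.77% and 0.791% in CD8 cells, so the count says nothing particular about these genes. They had medians, over genes that passed the floor somewhere, of -0.10 (CD4) and -0.07 (CD8) beside 0 for all genes. Srgn, whose product serglycin packs granzymes in the granule, was 1.18-fold lower on the knockout-labelled array in CD4 and 1.07-fold in CD8 cells. Rab27a, a GTPase gene needed for granule docking, was higher by 1.94-fold in CD4 and lower by 1.29-fold in CD8 cells.

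Ctsc, the protease that turns granzyme precursors into active enzymes, was 1.08-fold higher in CD4 and 1.16-fold higher in CD8 cells. Of the inhibitors in the same list, Serpinb6b passed 2-fold in each subset, and Cst7 and Serpinb6a did in CD4 cells. Cst7, the gene of cystatin F, was down 3.43-fold in CD4 and 1.64-fold in CD8 cells, and the serpin gene Serpinb6b was 3.14-fold and 2.08-fold lower. Serpinb9, an inhibitor of granzyme B, was 1.57-fold and 1.43-fold lower. Of the 7 named genes of this list, 3 were at least 2-fold lower in CD4 cells (5.06% of all genes) and 2 in CD8 cells (2.77%), and 0 were higher. The second in CD8 cells was Ctsh, a cathepsin gene, which read 736 on wildtype-labelled CD8 and below the floor on knockout-labelled CD8.

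Other ways of killing were mixed. Fasl, the ligand of the Fas death receptor, was lower by 5.78-fold in CD4 and by at least 6.99-fold in CD8 cells on the knockout-labelled arrays, while Fas itself was 1.84-fold and 2.79-fold higher. Tnf was 4.12-fold lower in CD4 and 1.27-fold higher in CD8 cells. Of 9 named genes of death pathways and granzyme substrates, 3 were at least 2-fold lower in CD4 cells (5.06% of all genes) and 1 in CD8 cells (2.77%), and 0 and 1 were higher (1.36% and 0.791%).

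Among 23 named regulators of granzyme and perforin genes, 10 were at least 2-fold lower on the knockout-labelled array in CD4 cells and 4 in CD8 cells, against 5.06% and 2.77% of all genes. In turn 1 and 0 were higher, against 1.36% and 0.791%, with medians of -0.51 and -0.38 beside 0 for all genes. The 4 that were lower in both subsets, against 1.44% of all genes, were Tbx21, Eomes, Bhlhe40 and Il2rb. Bhlhe40 was below the floor on both knockout-labelled arrays, so its differences are bounds. Tbx21, the T-bet gene, read 65.6 on knockout-labelled CD4, 2689 on wildtype CD4, 864 on knockout CD8 and 3599 on wildtype CD8, a drop of at least 28.6-fold in CD4 and of 4.16-fold in CD8 cells. Eomes was 186.5, 716.5, 1741 and 5659.5 in the same order, with CD8 above CD4 under each label. Prdm1, the Blimp-1 gene, was lower by 5.41-fold in CD4 cells and by at least 1.54-fold in CD8 cells, and Runx3 lay near the floor, between 101.0 and 179.4. Bach2, which represses effector genes, was 3.11-fold higher in CD4 and 1.61-fold higher in CD8 cells.

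**Figure D3:**
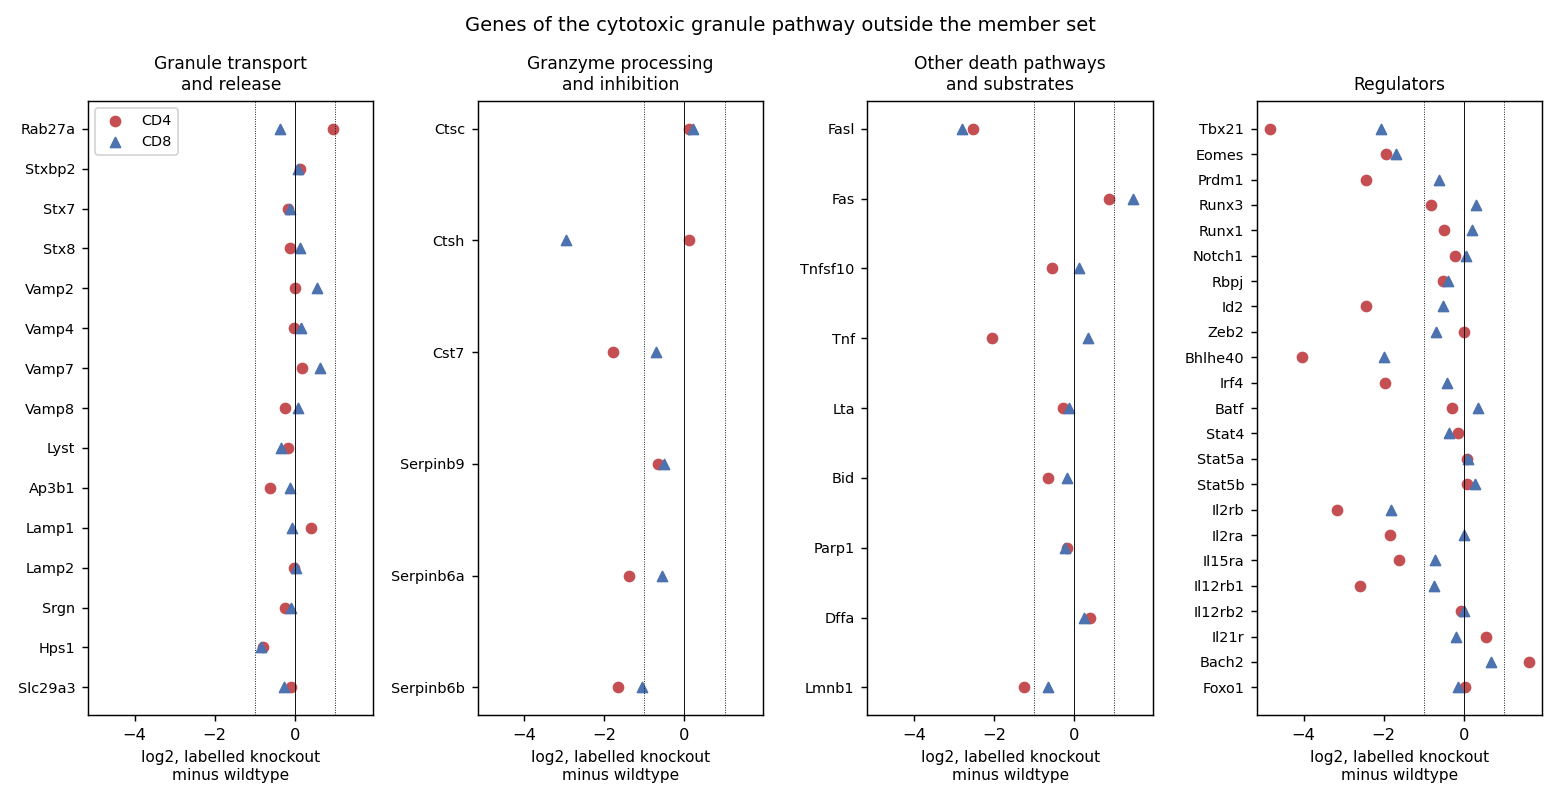
Log2 difference between the knockout-labelled and the wildtype-labelled array in CD4 (red circles) and CD8 cells (blue triangles) for the named genes of 4 lists, leaving out those at the floor on all arrays; dotted lines mark 2-fold. Genes of granule transport lie within 2-fold; Tbx21 (-4.84 in CD4 cells), Bhlhe40, Il2rb and Fasl lie low.

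Most dendritic and myeloid markers, and some natural killer markers, were high on the wildtype-labelled CD8 array, while the B cell markers were mixed. All 6 members were highest on that array. The summed signal of 9 dendritic and myeloid genes was 31398 there. On the other arrays it was 3260 (knockout CD4), 1316 (knockout CD8) and 3382 (wildtype CD4). Most of the sum on wildtype CD8 came from Cd74 (16735) and H2-Aa (12284). In CD8 cells 7 of the 9 were at least 2-fold lower on the knockout-labelled array, against 2.77% of all genes. Of the rest, Csf1r was near level, between 192.6 and 238.1, and Cd14 was below the floor on all arrays. The 6 natural killer genes that could be named summed to 1511 for wildtype CD8, 530 for knockout CD4, 198 for knockout CD8 and 714 for wildtype CD4. Of these, Ncr1, a defining receptor gene of natural killer cells, was below the floor on all 4 arrays, Tyrobp, a signalling adaptor gene of natural killer and myeloid cells, read 883 on wildtype CD8, and Klra8 read 220.6 there and below the floor elsewhere. Fcer1g read 248.4 on wildtype CD4 and 250.8 on wildtype CD8, Fcgr3 was highest on knockout CD4 (230.7), and Itga2 was below the floor throughout. Of 7 granulocyte and mast cell genes, 6 were below the floor on all arrays. The 6 named B cell genes summed to between 12593 and 16951, most of it Ighm, with 12593 on wildtype CD8. Among them Cd22 read 614.6 on wildtype CD8, 76.3 on knockout CD8 and 1124 on wildtype CD4. Blk passed the floor on wildtype CD8 alone (199.9), and Cd79b read 759 there, 737.5 on knockout CD8 and 305 on wildtype CD4. The B cell genes Cd79a and Ms4a1 were below the floor on all 4 arrays. Their part in the member values was not tested.

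**Figure D4:**
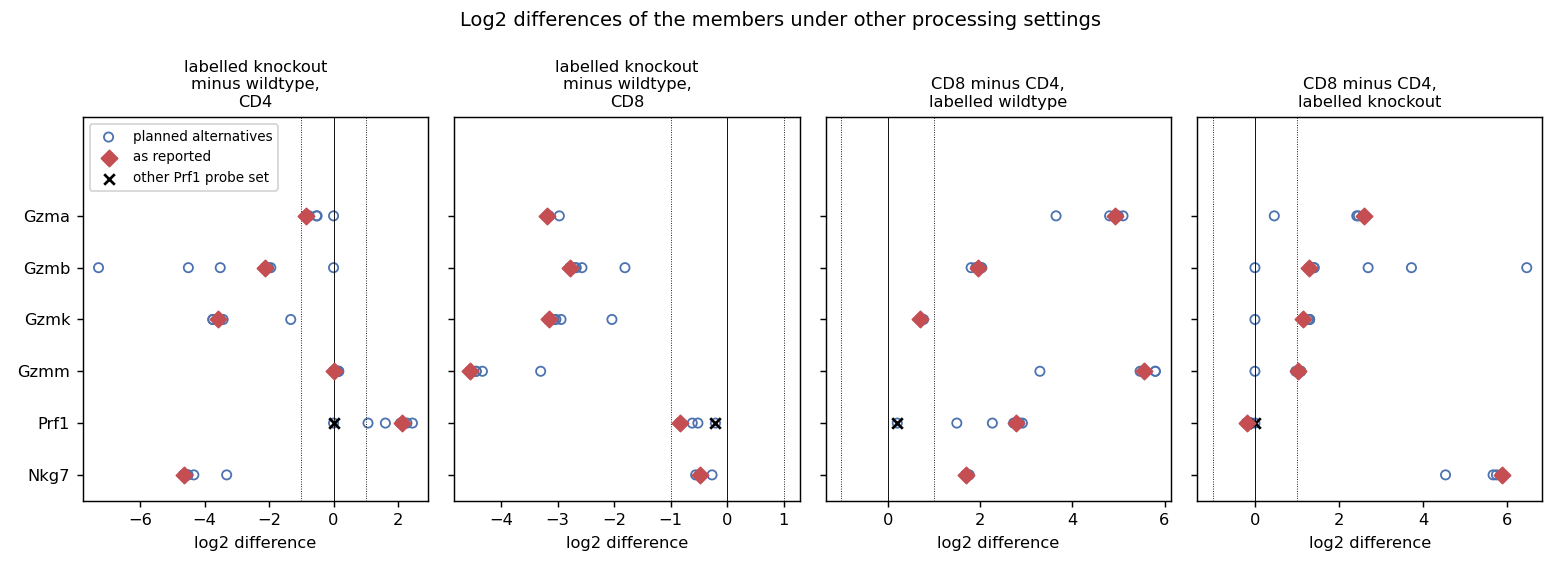
Log2 differences of the 6 members in the 4 comparisons as reported (red diamonds), under 8 other ways of processing (open circles) and, for Prf1, with its other probe set (crosses); dotted lines mark 2-fold. Gzmb in CD4 cells spreads from -7.30 to 0, since its knockout-labelled array is below the floor, and Nkg7 in CD4 cells stays between -4.65 and -3.32.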

How the data were processed

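The deposited values are linear signal intensities of 22690 probe sets on 4 Affymetrix MOE430A_2.0 arrays, and GCOS 1.4 and MAS5 are named per the submitters' processing notes; later steps are not stated there. From the values, each array's 2% trimmed mean is 1000, so the authors' intensities appear scaled to a common level. Medians ran from 189 to 235. The 64 control probe sets were left out. Detection calls were not used here.

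Of the rest, 20380 had 1 gene symbol in the platform annotation, 691 several and 1555 were not listed; 20351 matched RefSeq (GRCm38.p6) for current names. For genes with several probe sets, the one of highest mean log2 signal was used. Signals under the floor were set to it before log2. A gene counted at a 2-fold difference.

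Members, lists and rules were chosen with earlier results of these data known. The text names all 6 members, 3 genes of nearest profile for each (1 of these is not reported here), and genes of the lists by size or for their role. Lgals3 and Klrc1 came from the nearest profiles. Ctsh, Cst7, Fas, Tnf, Bach2 and Rab27a were picked after their values were seen. So were the markers Cd8b1, Tyrobp, Klra8, Fcer1g, Fcgr3, Cd74, H2-Aa, Csf1r, Cd14, Cd22, Blk, Cd79a, Cd79b and Ms4a1. No test was made, since each group has 1 array. Recovery of folds was checked on simulated arrays without noise, for genes far above the floor, so the handling of the floor was not checked. The software was pandas 2.3.3 and numpy 2.4.6 under Python 3.11.15, and figures were drawn with matplotlib 3.10.9. Protein sequences were not used here.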

Additional observations from a re-analysis of the deposited data

Results flagged for a closer look

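Prf1 was the member whose direction differed between the subsets: the knockout-labelled array was higher in CD4 cells (log2 2.13) and lower in CD8 cells (log2 -0.84). Put the other way, CD8 lay above CD4 cells under the wildtype label (log2 2.79) and slightly below under the knockout label (log2 -0.18). The difference was not tested, since each group has 1 array, and the other Prf1 probe set, with 3 of its 4 arrays at the floor, gives no value in CD4 cells and -0.21 or lower in CD8 cells.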

How the results depend on the processing

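No direction of a difference of at least 2-fold was reversed under the 8 other settings fixed with the design. Nor was one by the other Prf1 probe set, an alternative chosen after seeing the data. For 1 probe set, another floor, no floor or an added constant keeps the order of 2 arrays, so those settings could not reverse a difference. Scaling by medians, which ran from 189 to 235, is too small a change to reverse a 2-fold difference. The settings on probe sets leave members with 1 probe set unchanged or without a value. The lack of a reversal was thus largely fixed in advance and says little. A fall to 0 was not counted as a reversal. Counts of members changed under 4 settings, by more than 1.5 times except where given as small changes. Without multi-transcript probe sets, where Gzma and Gzmm have no value, the members lower in CD8 cells became 2 (from 4), those higher in CD4 cells 0 (from 1), and those higher in CD8 than CD4 cells 2 under the wildtype label and 3 under the knockout label (from 5 each). A floor at the 60th percentile left 1 of 5 members higher in CD8 than CD4 cells under the knockout label, and the other Prf1 probe set left 0 members higher on the knockout-labelled CD4 array. Small changes were from 3 to 2 members lower in CD4 cells (high floor), from 5 to 4 higher in CD8 than CD4 cells under the wildtype label (other Prf1 probe set), and from 5 to 4 under the knockout label (log2 of the value plus 16). Over the 8 settings the CD4 log2 difference ran from -7.30 without a floor to 0 with the high floor for Gzmb, from -3.75 to -1.33 for Gzmk and from -4.65 to -3.32 for Nkg7, and the CD8 one from -4.55 to -3.30 for Gzmm and from -3.18 to -2.97 for Gzma. The Gzmb difference between the subsets ran from -1.81 to 4.51 and that of Gzmk from -0.71 to 0.59, so both signs depend on the floor. Scaling by medians moved the median of all genes above the floor on all arrays to 0.33 (CD4) and 0.21 (CD8), and the share of higher genes among those 2-fold apart from 21.1% to 47.3% in CD4 and from 22.2% to 40.3% in CD8 cells (33.3% and 33.6% after quantile normalization). Between the high floor and no floor the share of all genes called lower ran from 2.02% to 17.5% (CD4) and from 0.807% to 15.5% (CD8), and the share called higher from 0.629% to 9.46% and from 0.266% to 8.48%. For CD8 against CD4 cells it ran from 1.24% to 13.6% lower and 0.920% to 12% higher under the wildtype label, and from 0.242% to 11.5% and 0.428% to 11.9% under the knockout label. No paired analysis was possible because each group has 1 array, and no array can be left out for the same reason. The plot of settings gives each value.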

Other observations

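The genes beside the members in the genome mostly did not share their signal. Mouse granzymes lie in clusters. The 14 other granzyme and neighbouring serine protease genes with a name on the array were below the floor on all 4 arrays. Among them were Gzmc, Gzmf and Gzmn, next to Gzmb on chromosome 14. Of all 12393 named genes, 8596 passed the floor on at least 1 array. Beside Gzma and Gzmk on chromosome 13, Gpx8 was below the floor on all arrays, Esm1 passed it on wildtype-labelled CD4 alone (104.1), and Snx18 was level, between 906 and 1120.3. Around Gzmm on chromosome 10, Cdc34 and Bsg, its nearest neighbours on each side, lay within 1.19-fold between the labelled genotypes in both subsets. Next to Prf1, Pald1 passed the floor on wildtype-labelled CD8 alone, at 211.4. Further out, Tbata and Nodal were below the floor on all arrays, and Sgpl1 and Eif4ebp2 lay within 1.3-fold between the labelled genotypes in both subsets.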
